A study of Mus musculus with 36 samples.

Results

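The proteasome is the protease that degrades proteins tagged with ubiquitin, and its genes were followed across adult neural stem cells and their progeny. Members were the genes whose symbol is Psma, Psmb, Psmc, Psmd, Psme, Psmf or Psmg followed by a number, which gave 47 of the 19909 genes in the table. They were separated by role into 7 alpha and 7 beta subunits of the constitutive core, 6 ATPases and 3 other subunits of the regulatory base, 8 subunits of the regulatory lid, 7 assembly chaperones, 3 immunoproteasome core subunits, 2 interferon-inducible activator subunits, 3 other activators or inhibitors, and Psma8, a core subunit of the testis. The 31 core, base and lid genes are called constitutive below. Psma8 lay near the floor of the measurement and did not pass the filter on low values, so 46 members were tested in each comparison. Psmb11, the core subunit of the thymus, was not analysed here.

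RNA was sequenced from 36 libraries of C57BL/6 mice aged 8 weeks. Flow cytometry of homogenised subependymal zone, the stem cell niche along the lateral ventricles, gave 8 fresh populations: qNSC, pNSC, aNSC and NPC1 with 4 libraries each, and NPC2, NB1, NB2 and Other with 3 each. These names are usually read as quiescent, primed and activated neural stem cells, progenitor cells and neuroblasts, but the labels do not spell them out and describe no gates. The remaining 8 libraries came from neurospheres of the same zone, grown unattached with EGF and FGF, taken at passage 4, loaded with the fluorescent dye DFFDA and sorted 4 days later into DFFDA_H and DFFDA_L, with 4 libraries each. The labels name no transgene, deletion or other treatment. The labels call the libraries biological replicates without naming animals; a p-value here reflects only how far these libraries differ, which may be technical.

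The core particle is a barrel of stacked rings: the outer alpha rings form the gate, and the inner beta rings hold the catalytic sites, which are those of Psmb5, Psmb6 and Psmb7. The regulatory particle caps the barrel; its lid and scaffold subunits receive and deubiquitinate the substrate, and the ATPase ring of the base unfolds it. Interferon signals can replace the catalytic subunits with Psmb8, Psmb9 and Psmb10, which makes the immunoproteasome, a producer of peptides for presentation on MHC class I.

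All values are log2 expression values as the authors deposited them, and a difference is one of log2 means; a member was called higher or lower at an adjusted p under 0.05 (limma, Benjamini-Hochberg adjustment over all genes tested). In the niche the astroglial and stem cell markers (Slc1a3, Gfap and 4 others), summed on the linear scale, ran from 17340 to 18950 in qNSC and from 134 to 149 in NB2. The proliferation and activation markers (Egfr, Mki67 and 3 others) ran from 181 to 234 in qNSC and from 2765 to 3113 in aNSC. Neuroblast markers (Dcx, Cd24a and 4 others) were highest in NB2, from 7424 to 8476, and in Other, from 5664 to 8132. Thus the markers followed the names, apart from Other, whose name gives no type. Libraries qNSC replicate 1 and pNSC replicate 1 stood apart, with mean correlations of 0.881 and 0.902 with their own groups, and qNSC replicate 1 had 3932 genes at its floor. Other replicate 3 had the fewest distinct values below its median, 56, against up to 427 elsewhere.

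The mean level of the constitutive genes was lowest in qNSC, highest in NPC1, NPC2 and Other, and low again in NB2. The mean log2 level over the 31 genes was 7.07 ± 0.05 in qNSC (SD, n = 4), 7.30 ± 0.16 in pNSC (n = 4), 7.79 ± 0.09 in aNSC (n = 4), 8.01 ± 0.17 in NPC1 (n = 4), 8.04 ± 0.10 in NPC2 (n = 3), 7.86 ± 0.22 in NB1 (n = 3), 7.37 ± 0.19 in NB2 (n = 3) and 8.01 ± 0.05 in Other (n = 3). Among the 7 named niche populations, 23 of the 31 genes were lowest in qNSC and the other 8 in NB2. Their highest level was in NPC2 for 16 genes, NPC1 for 12, aNSC for 2 and NB1 for 1. The cultured cells lay in between, at 7.47 ± 0.06 in DFFDA_H and 7.63 ± 0.05 in DFFDA_L (SD, n = 4 each). Across the 8 fresh group means, the correlation of each constitutive gene with the mean of the other 30 had a median of 0.919 and ran from 0.64 for Psmd2 to 0.985 for Psmd6; this describes group means that share libraries and one normalization. The same correlation lay between -0.17 and 0.20 for the 3 immunoproteasome core subunits. In bulk RNA, a smaller share of cells expressing a gene and less RNA per cell cannot be told apart.

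**Figure D1:**
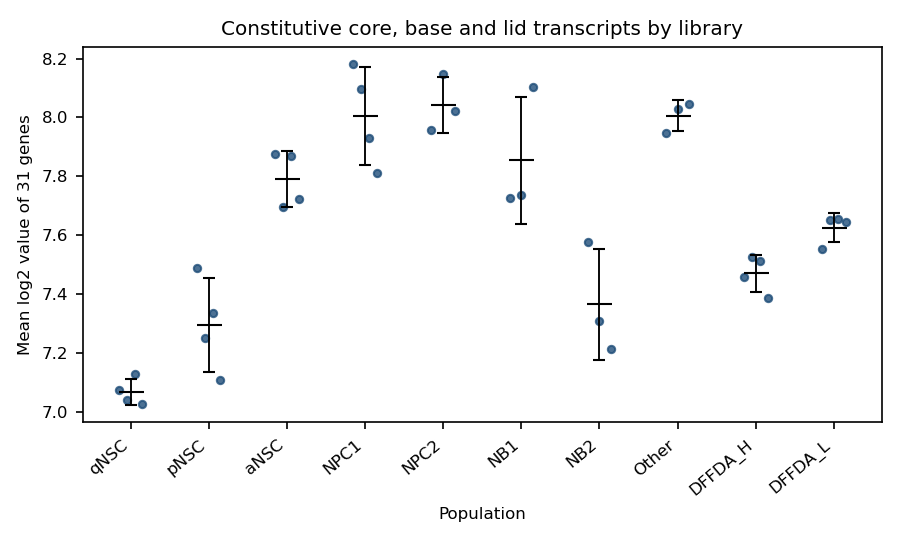
Mean log2 value of the 31 constitutive core, base and lid genes in each library, by population; points are libraries, the long tick is the group mean and the bars are 1 SD. The 4 qNSC libraries lie between 7.03 and 7.13, below every library outside pNSC, of which replicate 4, at 7.11, lies among them.

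**Figure D2:**
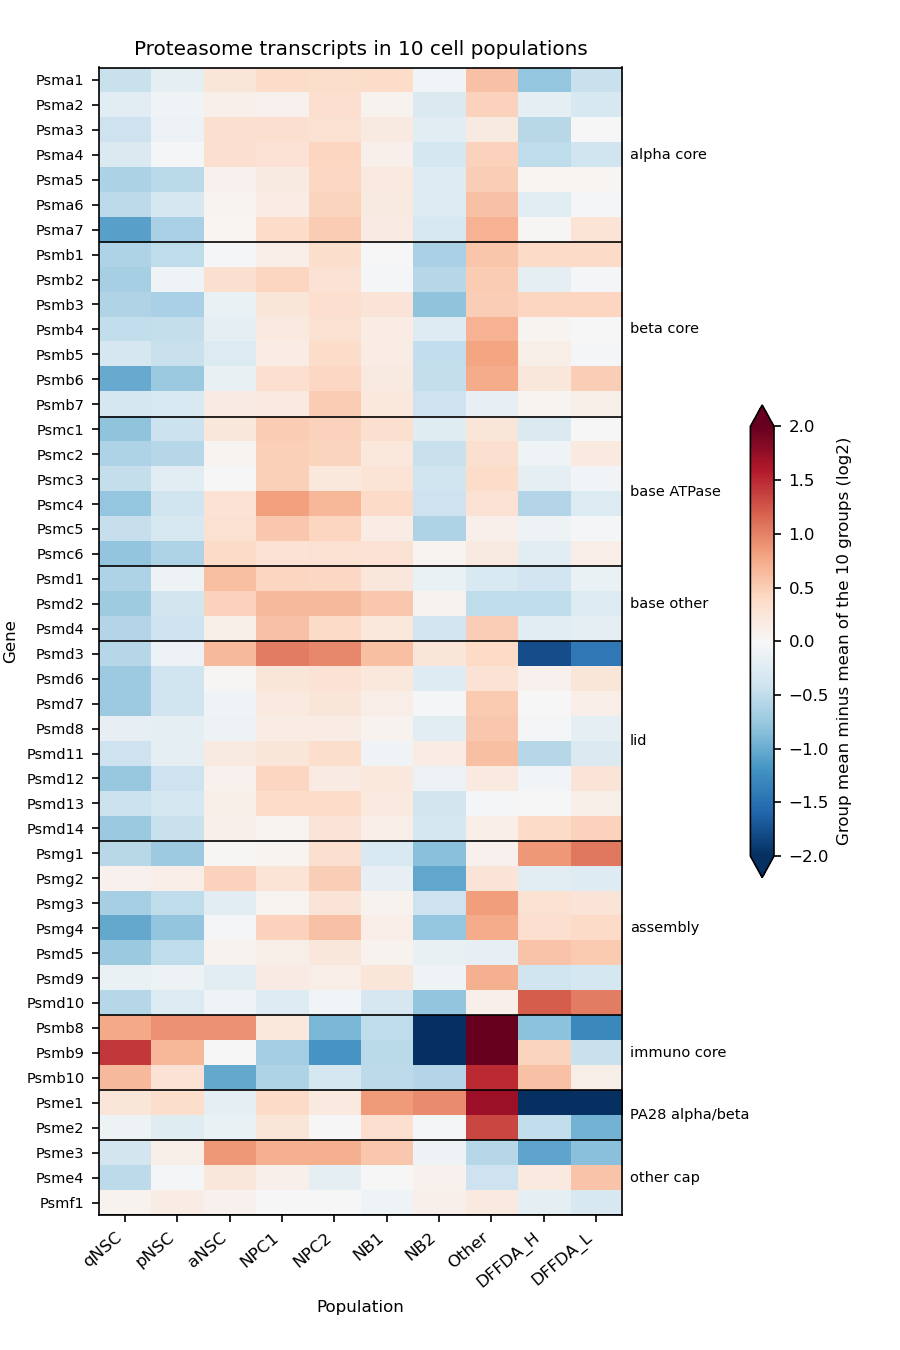
Group mean of each of 46 proteasome genes (rows, by role) in 10 populations (columns), as the log2 difference from the mean of the 10 groups; red is higher, blue is lower, and the scale is limited at 2 on either side. Most constitutive rows turn from blue in qNSC to red in NPC1 and NPC2, while the rows of Psmb8, Psmb9 and Psmb10 do not.

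From qNSC to aNSC, 36 of the 46 members rose and 2 fell, where 35.3% of all genes tested rose and 27.1% fell, or 62.3% in all. The median difference of the members was 0.63, against 0.19 over all genes. Of the constitutive genes 28 of 31 rose; Psmb4, Psmb5 and Psmd8 did not pass the test. The deposited scale bears on this result: when each library was centred on its trimmed mean difference from the average library, a choice made after seeing the data, the median of all genes moved from 0.19 to -0.11 and the share of calls that were higher from 56.6% to 45.0%. Under that centring 24 members were higher and 5 lower (Psmb9, Psmb10, Psmd9, Psme1 and Psmf1), and of the constitutive genes 21 were higher. The activation markers given above rose across the same groups, and the part of cell cycling in the proteasome values was not tested.

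In the core, all 7 alpha subunits rose, by 0.33 to 1.12. Psma7 was at 7.35, 7.20, 7.37 and 7.28 in the 4 qNSC libraries and at 8.61, 8.18, 8.55 and 8.34 in the 4 aNSC libraries, a difference of 1.12 ± 0.16 (SE; adjusted p = 1.64e-06, limma). The ranges were far apart, the lowest aNSC library lying above the highest qNSC library. Psma2 had the smallest rise, 0.33 ± 0.14 (adjusted p = 0.042, limma), its libraries overlapped, and its call ended when any one of 6 libraries was left out and under the centring. Of the beta subunits 5 of 7 rose, led by Psmb2, a noncatalytic ring subunit, which went from 7.64, 7.59, 7.88 and 7.64 in qNSC to 8.79, 8.59, 8.81 and 8.55 in aNSC (0.99 ± 0.16, adjusted p = 6.04e-06, limma). Again no aNSC library reached down to a qNSC library.

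The 3 catalytic subunits did not move alike. Psmb6, which carries the caspase-like site, was at 7.57, 7.61, 7.66 and 7.59 in qNSC and at 8.65, 8.33, 8.60 and 8.29 in aNSC, a rise of 0.86 ± 0.15 (SE; adjusted p = 1.73e-05, limma). Psmb7, with the trypsin-like site, was at 7.12, 6.38, 6.83 and 6.48 in qNSC and at 7.38, 7.13, 7.23 and 7.12 in aNSC, a rise of 0.51 ± 0.13 (adjusted p = 0.0017, limma) that did not pass under the centring (adjusted p = 0.16). Psmb5, with the chymotrypsin-like site, was at 6.64, 6.43, 6.74 and 6.36 in qNSC and at 6.76, 6.42, 6.74 and 6.53 in aNSC. The Psmb5 libraries of both groups overlapped almost fully, and the difference was 0.07 ± 0.15 (SE; adjusted p = 0.714, limma). In the progenitors Psmb5 was at 7.28, 7.09, 7.01 and 6.75 in NPC1 and 7.30, 7.26 and 7.20 in NPC2, and it was called neither from aNSC to NPC1 nor from NPC1 to NPC2.

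Both Psmb5 and Psmb6 have, just before their start, the letters of the antioxidant response element core, TGACNNNGC, the motif bound by the factors Nfe2l1 and Nfe2l2, and so their upstream sequence is shown as a pair that shares a motif while Psmb6 passed the test above and Psmb5 did not. The pair was chosen after the motif matches were seen. The sequences are from RefSeq (GRCm38.p6), with 150 bases before the first annotated start and the motif in capitals. They cover chr14:54618023-54618172 on the minus strand for Psmb5 and chr11:70525207-70525356 on the plus strand for Psmb6; the motif begins 47 and 9 bases before the RefSeq start.
Psmb5: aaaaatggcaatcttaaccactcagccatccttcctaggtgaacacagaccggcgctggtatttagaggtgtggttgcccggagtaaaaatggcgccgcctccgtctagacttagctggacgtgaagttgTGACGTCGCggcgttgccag
Psmb6: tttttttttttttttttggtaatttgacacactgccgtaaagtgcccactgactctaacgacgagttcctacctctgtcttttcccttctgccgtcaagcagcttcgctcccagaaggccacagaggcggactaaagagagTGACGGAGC
RefSeq held promoters for 39 of the 47 members, in 42 windows of 250 bases upstream. On either strand, TGACNNNGC was in 5 of the 42 windows, those of Psmb5, Psmb6, Psmc6, Psmd9 and Psmd12, or 11.9%, against 10.2% of all 32817 such windows. The CCAAT box was in 31% of member windows and 33.8% of all windows. The interferon-stimulated response element and the interferon-gamma motif TTCNNNGAA were in 3 and 2 member windows, or 7.14% and 4.76%, against 2.97% and 7.01% of all windows. The first was in the windows of Psmb3, Psmd4 and Psmd9, and the second in those of Psmg1 and Psmb8. A match describes letters and shows no binding.

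The base rose as a whole: all 6 ATPases and all 3 other base subunits gained from qNSC to aNSC, by 0.48 to 1.23. Psmc1, an ATPase whose tail opens the core gate, was at 7.05, 6.99, 7.11 and 7.05 in qNSC and at 8.21, 7.96, 8.12 and 8.09 in aNSC (1.04 ± 0.11, adjusted p = 4.26e-09, limma). Psmd1, a scaffold of the base, was at 7.26, 7.42, 7.28 and 7.14 in qNSC and at 8.48, 8.53, 8.65 and 8.36 in aNSC (1.23 ± 0.13, adjusted p = 4.23e-09, limma), 2.34-fold on the linear scale. For each of the 9 base genes the libraries of the groups did not overlap. The share of all genes without overlap was not computed, and 62.3% of all genes were called in this comparison. In the lid 7 of 8 subunits rose, led by Psmd3, which was at 6.66, 7.14, 7.18 and 7.10 in qNSC and 8.22, 8.14, 8.26 and 8.27 in aNSC. Psmd14, the lid's deubiquitinating enzyme, rose by 0.84 ± 0.15 (SE; adjusted p = 2.47e-05, limma), while Psmd8 differed by 0.05 ± 0.12 and did not pass.

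Assembly chaperones rose with the subunits, 6 of 7 being higher in aNSC, but 4 of those calls were lost under the centring. Psmd5, a chaperone of the base, was at 6.17, 6.60, 6.50 and 6.57 in qNSC and at 7.30, 7.26, 7.37 and 7.13 in aNSC (0.80 ± 0.13, adjusted p = 8.94e-06, limma). The rise of Psmg4, which helps build the alpha ring, was of 0.99 ± 0.24 (adjusted p = 0.00106, limma), from 4.34, 3.55, 4.25 and 3.82 to 5.05, 4.76, 5.12 and 4.97. Both of these remained called under the centring, and in both the groups were apart. Psmd10, Psmg1, Psmg2 and Psmg3 rose by 0.38 to 0.58 and lost their calls under it. Psmd9, another base chaperone, differed by -0.08 ± 0.14 and did not pass.

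Among the alternative caps, the nuclear activator Psme3 rose from 6.59, 6.59, 6.25 and 6.52 in qNSC to 7.76, 7.72, 7.79 and 7.65 in aNSC, a difference of 1.24 ± 0.15 (SE; adjusted p = 1.18e-07, limma). That was the largest rise among the 46 members in this comparison, and the groups were apart. Psme4, another nuclear activator, rose by 0.75 ± 0.21 (adjusted p = 0.00348, limma) with overlapping libraries, and its adjusted p was 0.061 under the centring. Psmf1, a binding partner first described as an inhibitor, had group means between 6.13 and 6.42 over the 8 fresh populations. It was called in no comparison on the deposited scale.

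The immunoproteasome genes went the other way or did not pass. Psmb10, the counterpart of Psmb7, was at 4.76, 4.84, 4.91 and 4.47 in qNSC and at 3.12, 3.05, 3.06 and 3.09 in aNSC, a fall of 1.66 on the log2 scale (difference -1.66 ± 0.30, adjusted p = 2.79e-05, limma). The 4 aNSC libraries were the tightest group of this gene and lay below every qNSC library. Psmb9, the counterpart of Psmb6, was at 1.77, 2.34, 1.93 and 0.98 in qNSC and at -0.50, 1.05, -0.53 and 1.35 in aNSC. Its difference of -1.42 ± 0.71 (SE) did not pass (adjusted p = 0.0872, limma), but it did pass with values below 0 set to 0 (-1.16, adjusted p = 0.015) and under the centring (-1.71, adjusted p = 0.042). Psmb8, the counterpart of Psmb5, was at -2.18, 3.49, 2.96 and 2.74 in qNSC and at 1.50, 2.43, 1.98 and 1.78 in aNSC. The lowest of these is the floor of qNSC replicate 1, and the other 3 qNSC libraries all lay above the aNSC libraries. Psme1, part of the interferon-inducible activator ring, was at 6.45, 5.97, 6.21 and 5.96 in qNSC and 5.80, 5.39, 5.89 and 5.76 in aNSC, a fall of 0.44 (difference -0.44 ± 0.16, adjusted p = 0.0193, limma). That call ended without qNSC replicate 1 or without aNSC replicate 2. Its ring partner Psme2 differed by -0.03 and did not pass.

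**Figure D3:**
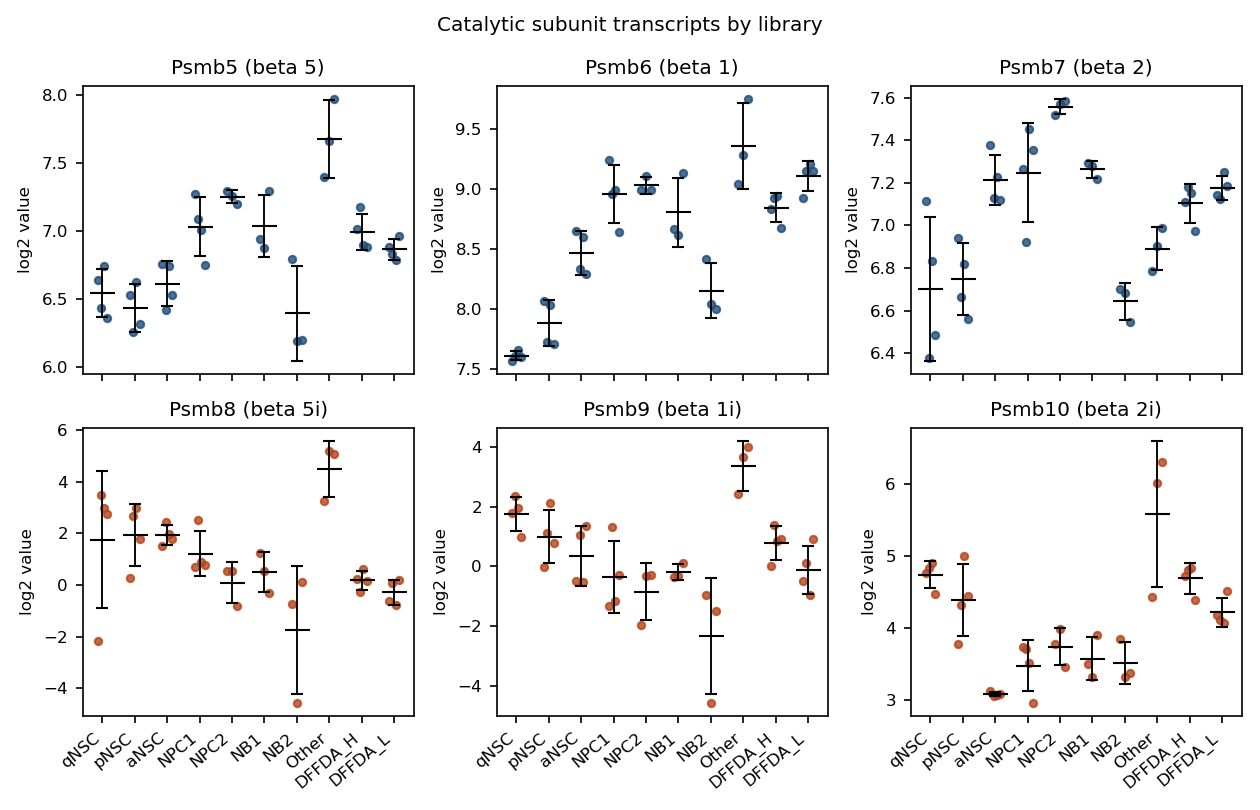
Log2 values of the 3 constitutive catalytic subunits (upper row) and their immunoproteasome counterparts (lower row) in each library of 10 populations; points are libraries, the long tick is the mean and the bars are 1 SD, with a separate y axis per gene. Psmb10 is tight and low in aNSC, at 3.05 to 3.12, and all 3 lower genes are highest on average in Other.

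Of 14 genes of MHC class I presentation and interferon response, 7 fell, 2 rose and 5 did not pass from qNSC to aNSC, where 27.1% of all genes fell and 35.3% rose. Those that rose were regulators. Nlrc5, the class I transactivator, rose by 4.07 ± 1.13 (SE, adjusted p = 0.00292, limma), and the interferon regulatory factor Irf1 by 1.25 ± 0.23 (adjusted p = 3.18e-05, limma). Nlrc5 went from -2.26 ± 2.00 in qNSC to 1.81 ± 0.64 in aNSC (mean ± SD), and its mean was below 0 in every other group. The size of the Nlrc5 rise therefore rests on low and scattered qNSC values. Among those that fell, the smallest adjusted p-values were for Tapbp, which loads peptide, at -2.15 ± 0.19 (SE; adjusted p = 3.51e-10, limma), the peptide transporter subunit Tap2 at -2.84 ± 0.28 (2.70e-09) and the class I chains H2-K1 at -3.11 ± 0.32 (4.35e-09) and H2-D1 at -1.30 ± 0.22 (1.12e-05). The 14 genes summed to between 890 and 1166 in qNSC and between 280 and 506 in aNSC on the linear scale. Markers of other cells also moved with these groups: the mural sum (4 genes) was 119 to 160 in qNSC and 1.80 to 5.32 in aNSC, nearly all of it Pdgfrb (mean log2 7.11 and 0.87), the ependymal sum (6 genes) was 154 to 186 and 19.6 to 29.2, and the microglial sum (15 genes) was 340 to 812 and 274 to 419. The other mural genes lay near or below 0, and Myh11 went the other way, from -3.53 to -0.65. Endothelial markers (10 genes) summed to 6.46 to 14.2 and 2.95 to 8.82. Their part in the fall of Psmb10 and Psme1 was not tested.

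For the replacement pairs, the log2 difference within each library, immunoproteasome subunit less constitutive counterpart, was compared between groups by exact permutation tests. There were 6 tests, 2-sided, with 4 libraries against 4, so no p could be below 0.0286. Psmb10 minus Psmb7 was -1.96 ± 0.33 in qNSC and -4.13 ± 0.10 in aNSC (SD, n = 4 each), a change of -2.18 (exact permutation p = 0.0286, adjusted 0.0571). Psmb9 minus Psmb6 was -5.85 ± 0.56 in qNSC and -8.13 ± 1.18 in aNSC, a change of -2.28 (exact permutation p = 0.0286, n = 4 each, adjusted 0.0571). In both pairs all 4 aNSC libraries lay below all 4 qNSC libraries, yet neither passed after adjustment. Psmb8 minus Psmb5 was -4.79 ± 2.71 in qNSC and -4.69 ± 0.53 in aNSC, a change of 0.10 (exact permutation p = 1, n = 4 each). Without qNSC replicate 1 this last change was -1.24.

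The intermediate population pNSC lay closer to qNSC. From qNSC to pNSC 9 members rose and 0 fell, where 14.2% of all genes rose and 8.06% fell, or 22.3% in all (limma); at an unadjusted p under 0.05, 13 rose and 0 fell. The members' median difference was 0.18 and that of all genes -0.05. Those called were Psmb2 in the core, Psmc1, Psmc4 and Psmd1 in the base, Psmd3, Psmd6, Psmd7 and Psmd12 in the lid, and the activator Psme3. Psmd1 was at 8.16, 7.80, 7.65 and 7.59 in pNSC, all above its 4 qNSC values (0.53 ± 0.13, adjusted p = 0.00385, limma), and was the only one of the 9 called under every alternative. Psmb2 was at 8.57, 8.21, 8.43 and 7.91 in pNSC, likewise above all of qNSC. The count was 4 without the 3 libraries that stood apart, 4 without pNSC replicate 1, 5 without qNSC replicate 4 and 4 under the centring, where the share of all calls that were higher was 50.7% in place of 63.8%.

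From pNSC to aNSC 29 members rose and 2 fell, where 28.4% of all genes rose and 19.9% fell, or 48.3% in all. The members' median was 0.44 and that of all genes 0.22. Constitutive genes made up 25 of those that rose. Psmc6, an ATPase of the base, led with 7.07, 6.55, 6.73 and 6.90 in pNSC and 7.78, 7.83, 7.86 and 7.80 in aNSC (1.00 ± 0.14, adjusted p = 2.81e-06, limma); its libraries were apart. Psmb10 fell from 3.79, 4.33, 5.01 and 4.44 in pNSC to the aNSC values above, by 1.31 on the log2 scale, and Psme1 fell by 0.55 on the log2 scale. No pNSC library of either gene was as low as an aNSC library. Microglial markers moved with both steps of pNSC: of 15, 5 rose from qNSC and 6 fell to aNSC, with a sum of 565 to 1047 in pNSC, and their part was not tested. Under the centring the count was 17 higher and 2 lower, and the share of all calls that were higher was 45.9% in place of 58.8%.

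Beyond aNSC the changes were fewer. From aNSC to NPC1 8 members rose and 0 fell, where 6.24% of all genes rose and 6.48% fell, or 12.7% in all (limma); at an unadjusted p under 0.05, 16 rose and 0 fell. The members' median was 0.20 and that of all genes 0.03. They were Psmb6 in the core, Psmc2, Psmc3, Psmc4 and Psmd4 in the base, Psmd3 and Psmd12 in the lid, and Psme1. Psmc4, an ATPase, went from 8.42, 8.14, 8.30 and 8.10 in aNSC to 9.04, 8.78, 8.69 and 8.56 in NPC1 (0.53 ± 0.12, adjusted p = 0.00502, limma), with the groups apart. Psmd4, a ubiquitin receptor of the base, was at 7.54, 7.51, 7.52 and 7.42 and then at 8.08, 8.08, 7.90 and 7.81 (0.47 ± 0.11, adjusted p = 0.00574, limma). These 2 were called under every alternative; the count was 2 without aNSC replicate 2 or without NPC1 replicate 1, and 4 without aNSC replicate 4 or without NPC1 replicate 2. It was 14 with only these groups in the fit and 18 with library weights.

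Between NPC1 and NPC2 0 members passed (limma), where 0.202% of all genes were higher and 1.14% lower, or 1.34% in all; at an unadjusted p under 0.05, 1 was higher and 1 lower. With library weights 2 passed, Psma5 at 0.32 and Psma6 at 0.37, both alpha subunits. From NPC2 to NB1 Psme1 rose and Psmg2, a chaperone of the alpha ring, fell, where 3.78% of all genes rose and 3.88% fell, or 7.67% in all. Psme1 went from 5.97, 6.38 and 5.98 to 6.66, 6.60 and 7.03 (0.65 ± 0.18, adjusted p = 0.0262, limma). Psmg2 went from 6.06, 6.20 and 6.23 to 5.31, 5.34 and 5.85 (-0.66 ± 0.17, adjusted p = 0.0132, limma). In both genes the groups were apart, but each call ended when 1 of 4 libraries was left out: both without NPC2 replicate 3 and without NB1 replicate 1, that of Psme1 also without NPC2 replicate 1 or NB1 replicate 3, and that of Psmg2 also without NPC2 replicate 2 or NB1 replicate 2. With library weights the step had 1 higher and 21 lower.

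Of the constitutive genes 19 of 31 fell between the neuroblast populations, and 13 of 31 under the centring. From NB1 to NB2 22 members fell and 0 rose, where 14.2% of all genes fell and 10.4% rose, or 24.6% in all (limma); at an unadjusted p under 0.05, 34 fell and 0 rose. The members' median was -0.47 and that of all genes -0.03. Psmb3, a noncatalytic beta subunit, went from 7.13, 7.12 and 7.53 in NB1 to 6.40, 6.12 and 6.06 in NB2 (-1.07 ± 0.18, adjusted p = 0.000103, limma). Psmc4 went from 8.21, 8.20 and 8.60 to 7.81, 7.41 and 7.37 (-0.81 ± 0.14, adjusted p = 0.000128, limma). Both genes were below their NB1 values in all 3 NB2 libraries.

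The fall from NB1 to NB2 took in 6 of 7 beta subunits, 5 of 6 ATPases, 3 of 7 alpha subunits, 2 of 3 other base subunits and 3 of 8 lid subunits. All 3 catalytic subunits were among them: Psmb5 was at 6.80, 6.19 and 6.20 in NB2 (-0.64 ± 0.17, SE), Psmb6 at 8.41, 8.04 and 8.00 (-0.66 ± 0.17) and Psmb7 at 6.70, 6.68 and 6.54 (-0.62 ± 0.15). Psmg2 fell further, to 4.79, 4.62 and 4.48 (-0.87 ± 0.17, adjusted p = 0.000364, limma), and so did Psme3, to 6.58, 6.91 and 6.77 (-0.64 ± 0.18, adjusted p = 0.00949, limma). Each of these genes was lower in all 3 NB2 libraries than in all 3 NB1 libraries. The proliferation and activation markers summed to 1507 to 1657 in NB1 and 284 to 300 in NB2, and their part was not tested. The count was 12 without NB1 replicate 3 (11 lower and 1 higher), 13 without NB2 replicate 2, 12 without NB2 replicate 3 and 38 with library weights (36 lower and 2 higher).

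Set against aNSC, NB2 had 25 members lower and 1 higher, where 27.1% of all genes were lower and 23.6% higher, or 50.8% in all; the members' median was -0.40 and that of all genes -0.05. Of the constitutive genes 18 of 31 were lower. Psmc5, an ATPase, was at 7.80, 7.79, 7.90 and 7.75 in aNSC and at 7.11, 6.80 and 6.76 in NB2 (-0.92 ± 0.14, adjusted p = 3.40e-06, limma). Apart from Psmb8 and Psmb9, Psmg2 had the largest difference, -1.50 ± 0.16 (SE; adjusted p = 1.26e-08, limma). The member that rose was Psme1, at 7.08, 6.80 and 6.71 in NB2 (1.15 ± 0.17, adjusted p = 3.59e-06, limma), above all 4 aNSC libraries. Psmb8, at -0.75, -4.56 and 0.10 in NB2, and Psmb9, at -0.97, -4.56 and -1.49, were called lower. The value of -4.56 is the floor of NB2 replicate 2, and neither call held without that library (adjusted p = 0.0852 and 0.0932, limma). That of Psmb9 also ended with values below 0 set to 0 (-0.60, adjusted p = 0.267, limma).

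The population Other had the highest immunoproteasome levels. Against the mean of the 7 named niche populations, 30 members were higher and 3 lower, where 25.9% of all genes were higher and 28.4% lower, or 54.3% in all; the members' median was 0.45 and that of all genes -0.06. Psmb8 was at 3.26, 5.17 and 5.06 in Other (3.69 ± 0.84, adjusted p = 0.000634, limma), against group means from -1.74 to 1.92 elsewhere. Psmb9 was at 2.41, 3.66 and 3.99 (3.45 ± 0.62, adjusted p = 4.59e-05), against means from -2.34 to 1.76. Psmb10 was at 4.43, 6.02 and 6.32 (1.80 ± 0.26, adjusted p = 2.62e-06, limma), against means from 3.08 to 4.75. Of these 3 genes Psmb9 alone lay, in every Other library, above every library of the named populations. Other replicate 1 was the lowest of the Other libraries in all 3.

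Both subunits of the interferon-inducible activator were also higher in Other. Psme1 was at 7.48, 7.60 and 7.78 (1.31 ± 0.14, adjusted p = 2.63e-08, limma) and Psme2 at 6.22, 6.79 and 6.99 (1.32 ± 0.17, adjusted p = 4.48e-07, limma). These 2 genes did not overlap with any named population. In the class I and interferon list 7 of 14 genes were higher and 1 lower, where 25.9% of all genes were higher and 28.4% lower; the smallest adjusted p was that of the class I light chain B2m (2.70 ± 0.25, adjusted p = 3.48e-09, limma).

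Markers of other cells moved with Other. All 10 endothelial markers were higher there, with a sum of 839 to 2379 against at most 14.8 in any library of the named populations. The microglial sum was 721 to 1250, with 11 of 15 markers higher, and the mural sum 44.1 to 221, with 4 of 4 higher. Other replicate 1, lowest in Psmb8, Psmb9 and Psmb10, had the lowest endothelial, microglial and mural sums of the Other libraries (839, 721 and 44.1). It was also lowest in the ependymal, erythroid, astroglial and oligodendrocyte precursor sums. Its neuroblast sum (8132) and mature neuron sum (110) were the highest of the Other libraries, and its oligodendrocyte sum lay between those of the others. The part of any of these cells in the immunoproteasome values was not tested.

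**Figure D4:**
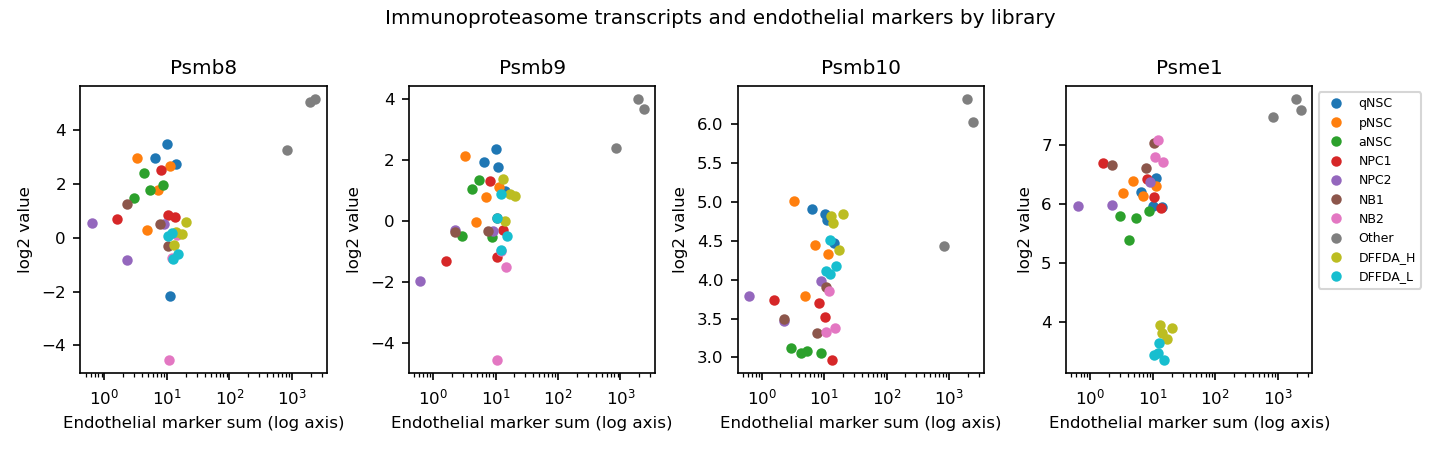
Log2 values of Psmb8, Psmb9, Psmb10 and Psme1 (y axes, each gene with its own range) against the summed linear level of 10 endothelial markers (x axis, log scale) in all 36 libraries, coloured by population. The 3 Other libraries, with sums from 839 to 2379, lie apart on the right; the remaining 33 libraries reach at most 20.4.

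The constitutive genes of Other were uneven: 21 of 31 were higher than the mean of the named populations and 2 lower. Psmb5 was at 7.40, 7.66 and 7.97, above every library of the named populations (0.92 ± 0.13, adjusted p = 2.35e-06, limma). Psmb6 was at 9.04, 9.28 and 9.75 (0.94 ± 0.13, adjusted p = 1.32e-06, limma), whereas Psmb7, at 6.79, 6.90 and 6.99, differed by -0.16 and did not pass. The scaffold Psmd2 was lower, at 8.28, 8.21 and 7.36 (-0.68 ± 0.12, adjusted p = 4.75e-05, limma), and so was Psmd1, at 7.90, 7.68 and 7.20 (-0.42 ± 0.11, adjusted p = 0.00205, limma). The call of Psmd1 ended without Other replicate 3, its lowest library. Psme3 was lower as well, at 6.65, 6.40 and 5.80 (-0.93 ± 0.13, adjusted p = 2.70e-06, limma), and Psmg3, a chaperone of the alpha ring, was higher, at 5.76, 5.69 and 6.04 (1.03 ± 0.16, adjusted p = 5.56e-06, limma).

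In culture, 13 of the 16 members called between the dye fractions were constitutive genes, which also make up 31 of the 46 members tested. From DFFDA_H to DFFDA_L 14 members were higher and 2 lower, where 22.3% of all genes were higher and 21.6% lower, or 43.8% in all; the members' median was 0.10 and that of all genes 0.01. Constitutive genes made up 13 of those higher, with 3 alpha subunits, 1 beta subunit, 4 ATPases, 2 other base subunits and 3 lid subunits. Psma3, an alpha subunit, was at 7.16, 7.16, 7.12 and 6.98 in DFFDA_H and at 7.57, 7.63, 7.71 and 7.73 in DFFDA_L (0.55 ± 0.08, adjusted p = 8.07e-05, limma). Psmc1 was at 7.54, 7.56, 7.55 and 7.61 and then at 7.81, 7.95, 7.82 and 7.90 (0.30 ± 0.07, adjusted p = 0.00322, limma). In both genes the groups were apart.

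Of the catalytic subunits in culture, Psmb6 was at 8.84, 8.93, 8.94 and 8.68 in DFFDA_H and at 8.92, 9.15, 9.21 and 9.15 in DFFDA_L (0.26 ± 0.09, adjusted p = 0.0247, limma), with overlap. That call ended when any one of 5 libraries was left out. Psmb5 and Psmb7 differed by -0.13 and 0.07 and did not pass. Psmb10 was lower in DFFDA_L, at 4.18, 4.12, 4.07 and 4.51 against 4.73, 4.81, 4.84 and 4.39 (-0.47 ± 0.15, adjusted p = 0.0181, limma). Psme2 was lower too, at 4.06, 4.19, 4.54 and 4.73 against 4.71, 5.04, 4.97 and 4.68 (-0.47 ± 0.16, adjusted p = 0.0294, limma). The groups overlapped in both genes, and neither call held without DFFDA_H replicate 2 or without DFFDA_H replicate 3. Without DFFDA_H replicate 2 the count of members called was 10, all of them higher.

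Psmb8 was near 0 in all 8 cultured libraries, at 0.24, -0.28, 0.60 and 0.14 in DFFDA_H and -0.62, 0.08, -0.78 and 0.17 in DFFDA_L, and did not pass. Psmb9 was at 0.01, 1.37, 0.83 and 0.90 and then at -0.50, 0.10, -0.96 and 0.90, and did not pass. Psmb10 minus Psmb7 within a library was -2.41 ± 0.12 in DFFDA_H and -2.96 ± 0.21 in DFFDA_L (SD, n = 4 each), a change of -0.54 (exact permutation p = 0.0286, adjusted 0.0571). The changes of Psmb9 minus Psmb6 and of Psmb8 minus Psmb5 were -1.15 and -0.33 (exact permutation p = 0.0571 and 0.2, n = 4 each, adjusted 0.0857 and 0.24). Of the class I and interferon genes 10 of 14 could be tested in culture, and 6 were lower in DFFDA_L, where 21.6% of all genes were lower. The largest difference was that of the peptide transporter subunit Tap1 (-1.14 ± 0.23, adjusted p = 0.00156, limma), and the smallest adjusted p that of B2m (-0.76 ± 0.08, adjusted p = 1.10e-05, limma). The microglial marker sum was 106 to 116 in DFFDA_H and 77.3 to 89.8 in DFFDA_L, and its part in these values was not tested.

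For 5 of 46 members, Psmd3, Psmd5, Psmd10, Psmg1 and Psme1, no cultured library fell within the range of the 28 fresh libraries, against 24.7% of all 19158 genes tested; no test was made between cultured and fresh cells. Psme1 was between 3.36 and 3.96 in the 8 cultured libraries and between 5.39 and 7.78 in the 28 fresh ones. Psmd3 was between 5.56 and 6.44 in culture and between 6.66 and 8.80 in the niche. Psmd10, a base chaperone, was higher in culture, at 6.19 to 6.54, against 4.33 to 5.59 in the niche.

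The change from qNSC to aNSC was compared with the change from DFFDA_H to DFFDA_L by the difference of the differences. It was above 0 and passed for 26 members and below 0 for 1, where 24.0% of all genes were higher and 18.3% lower, or 42.3% in all; the members' median was 0.50 and that of all genes 0.14. Psmd1 rose by 1.23 in the niche and by 0.24 in culture, a difference of 0.98 ± 0.16 (SE; adjusted p = 1.10e-05, limma). Psmb10 fell by 1.66 on the log2 scale in the niche and by 0.47 on the log2 scale in culture, a difference of -1.19 ± 0.39 (adjusted p = 0.0126, limma). Psma3, the leading member in culture, rose by 0.73 in the niche and by 0.55 in culture, and their difference was 0.18 ± 0.19 and did not pass. Under the centring 15 members were higher and 1 lower, and the share of all calls that were higher was 44.1% in place of 56.7%.

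**Figure D5:**
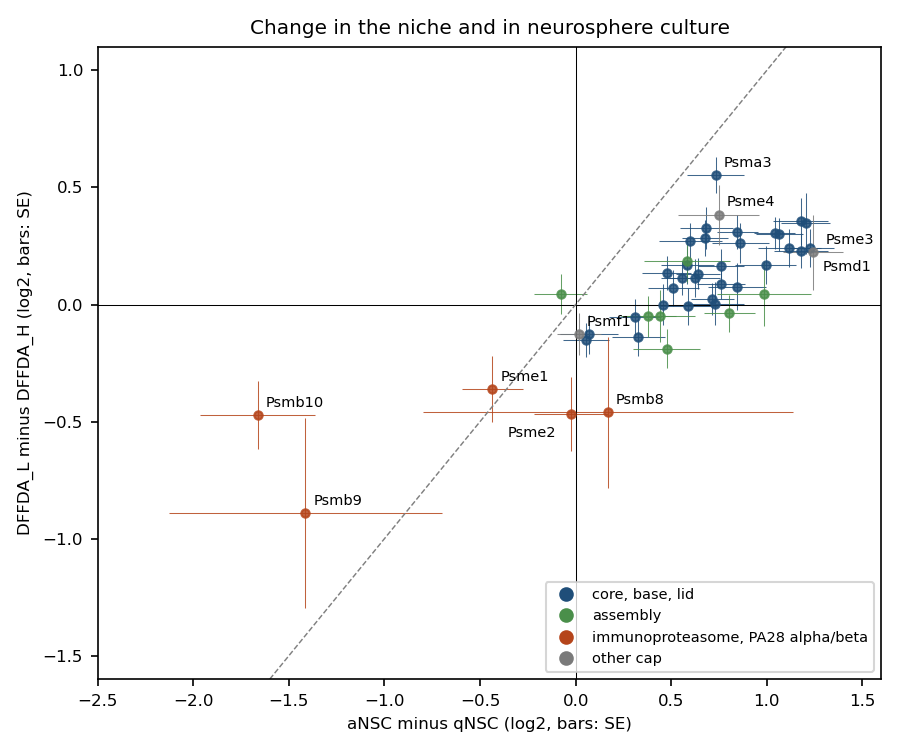
Log2 difference of each of 46 proteasome genes between aNSC and qNSC (x axis) and between DFFDA_L and DFFDA_H (y axis), with SE bars, coloured by role; the dashed line marks equal change. All 31 constitutive genes lie to the right of the line, as Psmd1 at 1.23 and 0.24, while Psmb10 lies at -1.66 and -0.47.

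With qNSC replicate 1, pNSC replicate 1 and Other replicate 3 left out together, a choice made after seeing the data, the number of members called changed from 31 to 33 for aNSC against pNSC, from 38 to 37 for aNSC against qNSC, from 8 to 11 for NPC1 against aNSC, from 26 to 29 for NB2 against aNSC, from 33 to 32 for Other and from 27 to 29 for the difference of differences.

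Genes that supply or assist the proteasome were also followed. From qNSC to aNSC the ubiquitin precursor genes Rps27a and Ubb rose, by 1.84 ± 0.18 (SE; adjusted p = 1.27e-09, limma) and 1.12 ± 0.12 (adjusted p = 9.49e-09, limma), and so did Uba1, the main ubiquitin-activating enzyme, by 0.85 ± 0.17 (adjusted p = 0.00013, limma). Of 14 receptors, deubiquitinases and other partners, 9 rose and 1 fell, where 35.3% of all genes rose and 27.1% fell. The largest rise was that of the shuttle factor Ubqln4 (2.17 ± 0.34, adjusted p = 4.50e-06, limma), and the smallest adjusted p-values were those of the proteasome-bound deubiquitinases Uchl5 (1.58 ± 0.16, adjusted p = 1.89e-09) and Usp14 (2.63-fold on the linear scale, adjusted p = 4.68e-08). In DFFDA_L 5 of the 14 partners were higher, where 22.3% of all genes were, Uchl5 by 0.57 ± 0.08 (adjusted p = 0.000105, limma). From NB1 to NB2 5 of the 14 partners fell, where 14.2% of all genes did, among them Sem1, a small lid subunit, by 1.25 on the log2 scale (adjusted p = 0.000141, limma).

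Of 8 genes that control proteasome transcription, 3 rose and 2 fell from qNSC to aNSC, shares near those of all genes (35.3% and 27.1%). Vcp, which extracts the precursor of Nfe2l1 from the membrane, rose by 1.05 ± 0.16 (SE; adjusted p = 1.85e-06, limma), and Ddi2, which cleaves it, rose by 0.74 ± 0.22 (adjusted p = 0.00446), whereas Ngly1, which removes its glycans, fell by 0.64 on the log2 scale (adjusted p = 0.00723, limma). The related factor Nfe2l3 rose by 3.73 ± 0.78 (adjusted p = 0.000186, limma), from -1.16 ± 2.29 in qNSC to 2.57 ± 0.50 in aNSC (mean ± SD). The size of that rise therefore rests on low and scattered qNSC values. Nfe2l2, the factor of the oxidative stress response, fell by 1.08 on the log2 scale (adjusted p = 5.53e-05, limma). Nfe2l2 fell again from NB1 to NB2, by 1.84 on the log2 scale (adjusted p = 2.27e-06, limma). Nfe2l1 itself did not pass from qNSC to aNSC (0.21 ± 0.22, adjusted p = 0.429, limma).

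Levels between genes were compared per kilobase of coding transcript, on the log2 scale. Psmb6 was the highest of the 31 constitutive genes in 8 of the 10 groups, at 7.93 in qNSC and 9.36 in NPC2, and Psmb2 was the highest in pNSC and aNSC, at 8.50 and 8.90. The group medians over the 31 genes ran from 6.49 in qNSC to 7.43 in NPC1. The lowest gene was the lid subunit Psmd3 in both cultured groups, at 4.71 and 5.05.

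In GENCODE M21, 13 members share exonic bases with another gene model and 8 have a near-identical copy elsewhere. Psmb9 and Tap1, Psme1 and Emc9, Psmb7 and Nek6, and Psmb8 and Gm20496 overlap on opposite strands. The kit does not mark strand, so reads within the shared bases of each pair cannot be told apart. How many bases each pair shares is not given here. Psmb5 and Psme2 have near-identical copies, Gm3375 and Psme2b. Psmb3 has 5 such copies, and Psmc1 and Psmd2 have 1 each. Psmd1 shares exonic bases with Gm21972 and Htr2b, and Psmd3 with Gm12356. Psmb10, Psmb6 and Psme3 have neither. Psmb10 lies at chr8:105935735-105938444 and Psme3 at chr11:101316213-101323537 (GRCm38).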

How the data were processed

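The authors deposited 1 table of log2 expression values for 36 libraries of poly(A) RNA, made with the SMARTer Ultra Low and Nextera XT kits per the labels' protocols. Tools and builds that the submitters' processing notes list, without versions or roles, are GRCm38 (mm10), HISAT2, featureCounts, limma, Trimmomatic, cutadapt and FastQC. From the values, each library sums to nearly the same total on the linear scale and has nearly the same distribution, as log2 CPM after quantile normalization would; neither step is stated, read depth is unknown, and whole-transcriptome shifts may be removed. Genes were kept where 3 or more libraries of 1 group reached a log2 value of 0. Differences were fitted across all kept genes with limma 3.58.1 (R 4.3.3; trend and robust), fresh and cultured libraries separately and together for the difference of differences, and p-values were adjusted over all genes tested; the code was tested on simulated data. The members and lists were chosen with earlier results of these data known. All members could be named, with values by library for the leading members of each role and the catalytic subunits. Alternatives were library weights, other filters and scalings, fits of only the groups compared, a replicate block and leaving out each library. One gene of the ubiquitin list is not reported here.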

Additional observations from a re-analysis of the deposited data

Results flagged for a closer look

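The change from qNSC to aNSC differed from that from DFFDA_H to DFFDA_L for 27 of the 46 members tested. The test was of the difference itself (limma, adjusted p under 0.05), and 42.3% of all genes passed it. Of the 27 calls, 16 held under every alternative. Among the rest, those of Psma2 and Psmb7 held in 13 of 24 alternatives each. Those of Psma4, Psmb1 and Psmb6 ended under the centring on the trimmed mean difference. Among the alpha subunits the log2 differences between the 2 changes were those of Psma2 (0.47), Psma4 (0.51), Psma5 (0.73) and Psma7 (0.88). Among the beta subunits the log2 differences between the 2 changes were those of Psmb1 (0.59), Psmb2 (0.83), Psmb6 (0.60) and Psmb7 (0.44). Among the ATPases the log2 differences between the 2 changes were those of Psmc1 (0.74), Psmc2 (0.39), Psmc4 (0.77), Psmc5 (0.67) and Psmc6 (0.82). Among the other base subunits the log2 differences between the 2 changes were those of Psmd1 (0.98), Psmd2 (0.95) and Psmd4 (0.69). Among the lid subunits the log2 differences between the 2 changes were those of Psmd3 (0.86), Psmd6 (0.60), Psmd7 (0.51), Psmd12 (0.54), Psmd13 (0.44) and Psmd14 (0.77). Among the assembly chaperones the log2 differences between the 2 changes were those of Psmg4 (0.94), Psmd5 (0.84) and Psmd10 (0.67). The nuclear activator Psme3 had 1.02, and Psmb10 of the immunoproteasome had -1.19, the only one below 0.

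In 14 of 282 groups of 4 libraries, 1 library lay far from the other 3, about as many as chance gives (1 in 20). In qNSC, replicate 1 was high for Psmb4 (6.98), low for Psmd3 (6.66) and at its floor for Psmb8 (-2.18), and replicate 3 was high for Psma2 (8.05) and low for Psmd11 (6.93). In pNSC, replicate 3 was high for the chaperones Psmg4 (4.74) and Psmd9 (6.20). In NPC1, replicate 2 was high for Psmd1 (8.55) and Psmb8 (2.52), replicate 1 was high for Psme4 (5.57) and replicate 4 was low for Psmd13 (7.53). In culture, DFFDA_H replicate 4 was low for Psmd7 (7.94) and Psmd10 (6.30), and DFFDA_L replicate 1 was high for Psmd8 (7.30).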

How the results depend on the processing

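No member called changed its direction under any alternative run, while 309 of its recomputed calls lost significance and 4010 kept it. The count of members called moved by over 1.5 times with library weights (3 for pNSC against qNSC, 18 for NPC1 against aNSC, 2 for NPC2 against NPC1, 22 for NB1 against NPC2 and 38 for NB2 against NB1) and with only the groups compared in the fit (2 for pNSC against qNSC and 14 for NPC1 against aNSC). Under the centring on the trimmed mean difference it moved to 4 for pNSC against qNSC, 19 for aNSC against pNSC and 16 for the difference of differences, and without 3 libraries to 4 for pNSC against qNSC. The cause was not tested. Both of these last alternatives were chosen after seeing the data, and the 3 libraries first included Other replicate 1, which was replaced by replicate 3 on its few distinct values.

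With 1 library left out at a time, the counts ran from 4 to 10 for pNSC against qNSC, 24 to 32 for aNSC against pNSC, 33 to 38 for aNSC against qNSC, 2 to 8 for NPC1 against aNSC, 0 to 0 for NPC2 against NPC1, 0 to 2 for NB1 against NPC2, 12 to 28 for NB2 against NB1, 18 to 31 for NB2 against aNSC, 30 to 34 for Other, 10 to 15 for DFFDA_L against DFFDA_H and 24 to 28 for the difference of differences. The change of Psmb8 minus Psmb5 from qNSC to aNSC ran from -1.24 to 0.72 and turned below 0 with values below 0 set to 0 (-0.44), without qNSC replicate 1 (-1.24) and without aNSC replicate 2 (-0.13). In culture it ran from -0.54 to -0.16. Psmb9 minus Psmb6 ran from -2.67 to -1.93 in the niche and from -1.48 to -0.84 in culture, and Psmb10 minus Psmb7 from -2.31 to -2.04 and from -0.64 to -0.47.

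Correlations between the deviations of same-numbered libraries were weak, from -0.16 to 0.24. They were all above 0 in some comparisons, as from 0.06 to 0.18 for aNSC against pNSC, and not in others. The main fits used no pairing by number, and whether same-numbered libraries share animals or batches is not known. With a replicate block the counts of members called, in the order above, were 10, 31, 39, 9, 0, 2, 24, 32, 33, 17 and 26, each within 1.5 times of that without it. Read depth is unknown, so low values such as those of Psmb8 and Psmb9 have no counting interval.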
